A study of Mus musculus with 12 samples.

Results

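Transcripts of 47 genes that copy DNA or open S phase were followed across 12 RNA sequencing libraries of 4T1 cells, a mouse mammary carcinoma line of the BALB/c strain that the labels call triple-negative. The genes were chosen by symbol from a list that covers origin licensing, the replicative helicase, the polymerases, the sliding clamp and its loader, nucleotide synthesis, cyclin E with its kinase, and the fork checkpoint. All 47 had 1 entry among the 40406 of the table, and all 47 passed the filter on low counts. The 4 groups of 3 libraries were knockout-labelled cells given docetaxel, wild-type cells given docetaxel, knockout-labelled cells given DMSO, and wild-type cells given DMSO. The label knockout refers to integrin β3, the product of Itgb3. Docetaxel, a taxane that stabilises microtubules and arrests cells in mitosis, was used at 10 nM for 24 h, and DMSO, its solvent, for the same time. All cells then spent 48 h in fresh medium without drug. All 4 groups were grown in biological triplicate in serum-containing medium on dishes coated with poly-L-lysine, per the labels' protocols. Whether the knockout cells were 1 clone or a pool, and how the gene was altered, the labels do not say.

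Replication starts at origins that carry the origin recognition complex. CDC6 and CDT1 load rings of the MCM helicase there in G1, and cyclin E with CDK2, the kinase CDC7, CDC45 and the GINS complex turn these rings into active helicases at the start of S phase. Polymerase α with primase lays down primers, polymerases δ and ε extend them while held by the PCNA clamp, RPA covers the exposed single strands, and FEN1 and DNA ligase 1 join the lagging-strand fragments. Most of these genes are transcribed in late G1 and S phase under E2F factors, and in proliferating tumour cells their transcripts are used as a sign of cycling. In bulk RNA, a larger share of cells in S phase and more of a transcript per cell cannot be told apart.

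Total counts ran from 28729118 to 40801679 per library. Under DMSO the Itgb3 transcript overlapped between the genotypes, with 62.4, 66.7 and 65.0 CPM (counts scaled to the TMM-adjusted library total, the unit of every level below) in knockout-labelled cells and 71.4, 60.1 and 66.1 CPM in wild-type cells. After docetaxel it was 59.3, 64.6 and 63.4 CPM in knockout-labelled cells and 80.6, 88.7 and 79.98 CPM in wild-type cells. A count summed over all exons cannot show whether the transcript is intact, so every genotype direction rests on the labels. The free-text description of wild-type DMSO library 1 names the knockout, whereas the title and the genotype field give wild type. Over 86 genes that separate the genotypes in the docetaxel libraries, its mean signed log2 CPM was −0.61. In knockout-labelled DMSO libraries this mean was 0.66 to 0.71, and in wild-type DMSO libraries 2 and 3 it was −0.61 and −0.84, so that library 1 lay with the wild type. Its replication genes, however, stood above those of the other wild-type DMSO libraries, and results are given below with and without it. The share of counts taken by Gm23935, a small RNA gene, was also uneven. It was 0.293% to 1.51% in knockout-labelled docetaxel libraries, 0.192% to 0.22% in wild-type docetaxel libraries, 0.137% to 0.177% in knockout-labelled DMSO libraries, and 0.435% to 3.98% in wild-type DMSO libraries. A larger share went to Gm26917, at 7.37% to 11.9%, 7.75% to 10.9%, 9.06% to 9.33% and 7.07% to 11.5% in the same order of groups. The part of Gm26917 in the results was not tested.

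Of 5 epithelial markers, Krt8, Krt18, Epcam and Cdh1 ran from 309 to 1004 CPM over the 12 libraries and Krt14 from 38.2 to 72.5 CPM, and most markers of blood, endothelial and fibroblast cells were at or near 0. The exceptions were Cd3e, at 1.34 to 4.23 CPM, and Pdgfra, at 11.0 to 29.7 CPM. Lum was at 0 in every library, and the other 8 did not pass 0.455 CPM, the highest being the endothelial Cdh5. Cdh5 reached 0.252 CPM in knockout-labelled docetaxel, 0.455 CPM in wild-type docetaxel, 0 CPM in knockout-labelled DMSO and 0.0695 CPM in wild-type DMSO libraries. Krt14 had 44.2 to 70.7 CPM in knockout-labelled docetaxel, 56.3 to 72.5 CPM in wild-type docetaxel, 47.5 to 54.0 CPM in knockout-labelled DMSO and 38.2 to 42.7 CPM in wild-type DMSO libraries. Of the receptors that define triple-negative tumours by their absence, Pgr reached at most 0.112 CPM, but Esr1 ran from 20.4 to 50.5 CPM and Erbb2 from 74.3 to 143 CPM. The summed epithelial markers ran from 2041 to 2614 CPM in knockout-labelled docetaxel, 2013 to 2448 CPM in wild-type docetaxel, 2708 to 2855 CPM in knockout-labelled DMSO and 2277 to 2877 CPM in wild-type DMSO libraries. The summed fibroblast markers, almost all of them Pdgfra, ran from 11.0 to 13.9, 18.99 to 19.99, 13.5 to 16.6 and 27.2 to 29.8 CPM in the same 4 groups. Their part in the results was not tested.

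The start sites of the replication genes carry letters that recur among cell-cycle genes. Windows of 250 bases before to 50 bases after the start, from RefSeq on GRCm38.p6, were found for 38 of the 47 genes. The letters TTTCCCGC or TTTGGCGC, forms bound by E2F factors, were searched on both strands and were present in 13 of 38 (34.2%), against 486 of 27025 genes (1.8%) in the whole set. The box CCAAT, bound by NF-Y, was present on either strand in 23 of 38 (60.5%), against 41.1% of all genes. Both kinds were in 8 of 38 (21.1%), against 0.851%. Each motif was counted on its own, and overlaps were allowed. The 6 stretches of 160 bases before the start are shown because they span the motif content, from both kinds to neither, and belong to genes described below. The matched letters are in capitals, and each stretch is read 5′ to 3′ on the strand of its gene. They lie at chr8:75109349-75109508 (plus strand), chr1:128359706-128359865 (minus strand), chr11:98907991-98908150 (plus strand), chr12:24708081-24708240 (plus strand), chr4:108579263-108579422 (plus strand) and chr7:38107535-38107694 (minus strand). The stretches of Rrm2, Orc1 and Ccne1 leave out the last 13, 31 and 44 bases before the RefSeq start, which GENCODE M21 places inside the gene. In GENCODE the Cdc6 gene starts further upstream, at chr11:98907801, so that the Cdc6 stretch lies inside the gene.
Mcm5: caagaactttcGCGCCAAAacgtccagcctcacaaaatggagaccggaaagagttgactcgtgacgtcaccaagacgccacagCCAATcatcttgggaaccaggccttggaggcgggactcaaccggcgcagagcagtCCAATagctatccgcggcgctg
Mcm6: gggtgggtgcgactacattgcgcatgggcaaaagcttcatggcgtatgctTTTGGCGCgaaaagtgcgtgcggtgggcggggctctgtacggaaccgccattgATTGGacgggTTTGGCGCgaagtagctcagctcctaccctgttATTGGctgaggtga
Cdc6: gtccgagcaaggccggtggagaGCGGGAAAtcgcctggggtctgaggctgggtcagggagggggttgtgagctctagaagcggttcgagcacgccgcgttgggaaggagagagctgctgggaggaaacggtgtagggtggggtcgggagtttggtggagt
Rrm2: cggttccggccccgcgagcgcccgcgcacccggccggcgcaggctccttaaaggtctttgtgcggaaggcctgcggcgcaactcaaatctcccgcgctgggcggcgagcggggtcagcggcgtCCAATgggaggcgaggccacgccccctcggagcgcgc
Orc1: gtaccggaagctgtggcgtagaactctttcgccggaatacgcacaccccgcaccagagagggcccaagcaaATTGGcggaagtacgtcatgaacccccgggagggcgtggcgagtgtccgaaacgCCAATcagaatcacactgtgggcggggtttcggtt
Ccne1: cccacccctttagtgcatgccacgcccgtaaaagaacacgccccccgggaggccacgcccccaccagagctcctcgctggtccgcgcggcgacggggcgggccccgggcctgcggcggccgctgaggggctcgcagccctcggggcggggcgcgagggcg

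Of the letters searched, Mcm5 and Mcm6 hold both kinds, Cdc6 an E2F match alone, Rrm2 and Orc1 CCAAT alone, and the Ccne1 stretch neither. Other forms bound by E2F factors were not searched, so a gene without these letters may still hold such a site. Among the 23 genes with a window that passed the docetaxel test in wild-type cells, described next, 5 (21.7%) held the E2F letters and 15 (65.2%) CCAAT. Among the 15 that did not pass it, 8 (53.3%) held the E2F letters and 8 (53.3%) CCAAT. These shares describe only the letters searched in a window, may change with the forms counted, and were not tested.

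After docetaxel, 5 of 47 replication transcripts were higher than under DMSO in knockout-labelled cells and 27 of 47 in wild-type cells. In knockout-labelled cells 0 fell and 42 did not pass (edgeR's quasi-likelihood test at a Benjamini-Hochberg adjusted p of 0.05 over all 15538 genes tested), where 9.09% of all genes were called higher and 7% lower (16.1% in either direction). The 5 were Ccne1, Orc1, Ccne2, Orc2 and Gins3, and all 5 also rose in wild-type cells. The median log2 fold change was 0.12, beside 0.00 over all genes. All docetaxel libraries lay above all DMSO libraries for 13 genes and below them for 4, Mcm7, Gins2, Lig1 and Tk1, against 19.2% and 18.5% of all genes.

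In wild-type cells, 27 of the 47 genes rose with docetaxel, 0 fell and 20 did not pass. Over all genes 14.5% were called higher and 13.8% lower. The median log2 fold change of the 47 was 0.43, beside 0.02 over all genes, and 44 of the 47 were positive. The largest increases were those of Ccne1, Cdc6, Orc1, Rrm2 and Rpa2. For 28 genes every docetaxel library lay above every DMSO library, and for 2, Cdt1 and Pold3, every one lay below, against 21.2% and 19.3% of all genes.

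Between genotypes, the test called 1 of the 47 genes after docetaxel and 12 under DMSO. After docetaxel, 0 of the 47 were higher in knockout-labelled cells and 1, Gins3, was lower, where 2.5% of all genes were called higher and 3.39% lower (5.89% in either direction). At an unadjusted p under 0.05, 3 of the 47 passed in that comparison, against 18.1% of all genes. DESeq2 called 2 of the 47 lower there, against 4.75% of all genes. All knockout-labelled libraries lay above all wild-type libraries after docetaxel for 2 genes, Mcm6 and Pold3, and below them for 6, Cdt1, Mcm5, Gins3, Orc6, Pcna and Tyms, against 11.9% and 13.2% of all genes. Under DMSO, 11 of the 47 were higher in knockout-labelled than in wild-type cells, 1 was lower and 35 did not pass, where 6.6% of all genes were called higher and 9.2% lower. The 11 were Ccne1, Rrm2, Clspn, Mcm3, Rpa2, Mcm2, Rpa1, E2f1, Mcm6, Mcm7 and Dut, and the 1 lower was Cdt1. Of these 11, 9 were also called higher with docetaxel in wild-type cells, but both comparisons use the same wild-type DMSO libraries. All knockout-labelled libraries lay above all wild-type libraries under DMSO for 13 genes and below them for 1, against 15.7% and 16.9% of all genes.

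All 47 are protein-coding genes in GENCODE M21. For the genes described most fully below, this annotation on GRCm38 places Ccne1 at chr7:38097984-38107534 (minus strand), Ccne2 at chr4:11191351-11204779 (plus strand), E2f1 at chr2:154559407-154569892 (minus strand), Orc1 at chr4:108579423-108614833 (plus strand), Orc2 at chr1:58462771-58505109 (minus strand), Cdc6 at chr11:98907801-98923940 (plus strand), Cdt1 at chr8:122568015-122573554 (plus strand). It places Mcm2 at chr6:88883474-88898780 (minus strand), Mcm3 at chr1:20802968-20820312 (minus strand), Gins3 at chr8:95633453-95645060 (plus strand), Pcna at chr2:132249162-132253314 (minus strand), Rpa2 at chr4:132768332-132778752 (plus strand), Rrm2 at chr12:24708241-24714146 (plus strand) and Clspn at chr4:126556935-126593903 (plus strand).

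**Figure D1:**
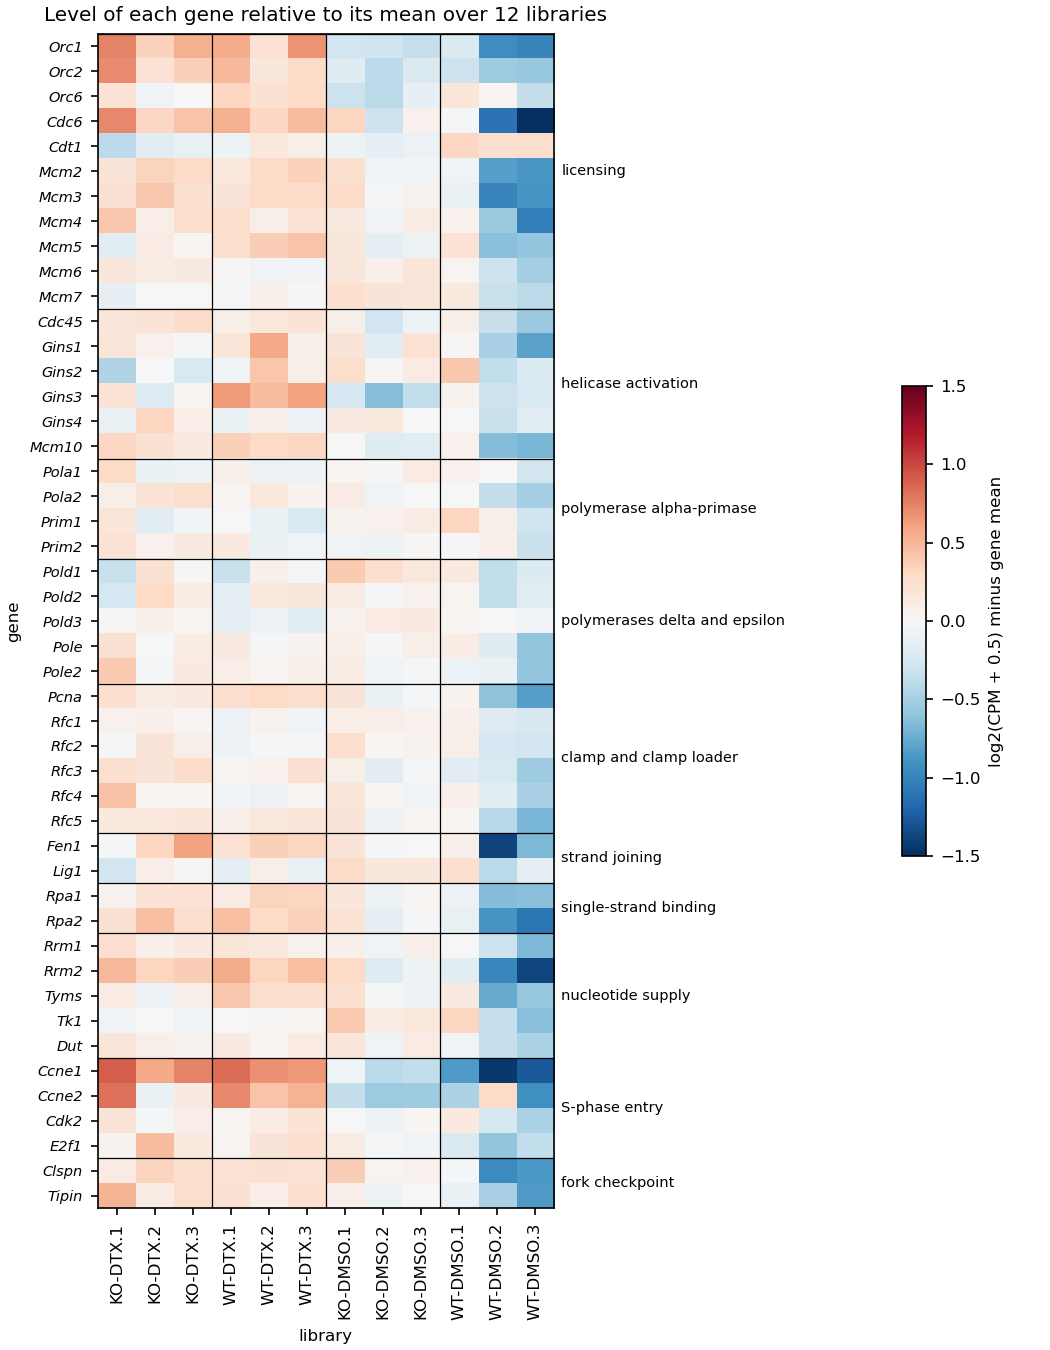
Level of each of the 47 genes in each of the 12 libraries, as log2(CPM + 0.5) minus the mean of the gene over all libraries, with genes in rows by role and libraries in columns. Red is above and blue below the gene's mean. Wild-type DMSO libraries 2 and 3, in the last columns, are the bluest. The wild-type DMSO group has the lowest mean of the 4 groups for 40 of the 47 genes, a count not made over all genes.

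Entry into S phase is driven by cyclin E, encoded by Ccne1 and Ccne2, with its kinase CDK2, and by E2F1, the transcription factor held back by the retinoblastoma protein in G1. Of these 4 genes, 2 rose with docetaxel in knockout-labelled cells and 3 in wild-type cells. Over all genes 9.09% and 14.5% were called higher, and the same shares stand beside the counts of every role below. Ccne1 had 13.0, 10.2 and 11.5 CPM in knockout-labelled docetaxel libraries and 12.4, 11.0 and 10.8 CPM in wild-type docetaxel libraries. Under DMSO it had 6.36, 4.95 and 5.05 CPM in knockout-labelled and 3.48, 2.13 and 2.499 CPM in wild-type libraries. The docetaxel libraries of both genotypes therefore overlapped, the knockout-labelled DMSO libraries lay below them, and the wild-type DMSO libraries were the lowest. The log2 fold change of Ccne1 with docetaxel was 1.09 ± 0.17 (SE; edgeR adjusted p = 0.000629) in knockout-labelled cells and 2.08 ± 0.18 (edgeR adjusted p = 5.63e-06) in wild-type cells, a 4.22-fold increase and the largest among the 47. Between genotypes it was 0.02 ± 0.16 after docetaxel (edgeR adjusted p = 0.97) and 1.01 ± 0.18 under DMSO (edgeR adjusted p = 0.00209). All 3 calls of Ccne1 were kept in all 6 fits that left out 1 library of the groups compared.

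Ccne2 had 19.5, 10.0 and 11.9 CPM in knockout-labelled docetaxel and 18.1, 14.7 and 15.7 CPM in wild-type docetaxel libraries. It had 8.31, 7.23 and 7.32 CPM in knockout-labelled DMSO and 7.65, 13.4 and 5.47 CPM in wild-type DMSO libraries, where library 2 stood apart. The docetaxel changes were log2 0.86 ± 0.28 (edgeR adjusted p = 0.0491) in knockout-labelled cells and 0.87 ± 0.28 (edgeR adjusted p = 0.0303) in wild-type cells. Of the 6 fits that left out 1 library, 1 kept the call in knockout-labelled cells and 2 kept it in wild-type cells. Exons of the opposite-strand gene Ints8 cover 17.4% of the exonic bases of Ccne2 over all its transcripts. No source used here states whether the counting used strand, so that reads of the 2 genes may be mixed. E2f1 was 46.3, 61.7 and 49.4 CPM in knockout-labelled docetaxel, 46.0, 51.3 and 53.2 CPM in wild-type docetaxel, 48.6, 44.1 and 43.6 CPM in knockout-labelled DMSO, and 38.4, 29.5 and 34.4 CPM in wild-type DMSO libraries. The wild-type DMSO libraries thus lay below all others. The log2 fold change of E2f1 with docetaxel was 0.21 ± 0.12 (edgeR adjusted p = 0.263) in knockout-labelled cells and 0.56 ± 0.12 (edgeR adjusted p = 0.00395) in wild-type cells. Cdk2 did not pass in any comparison.

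**Figure D2:**
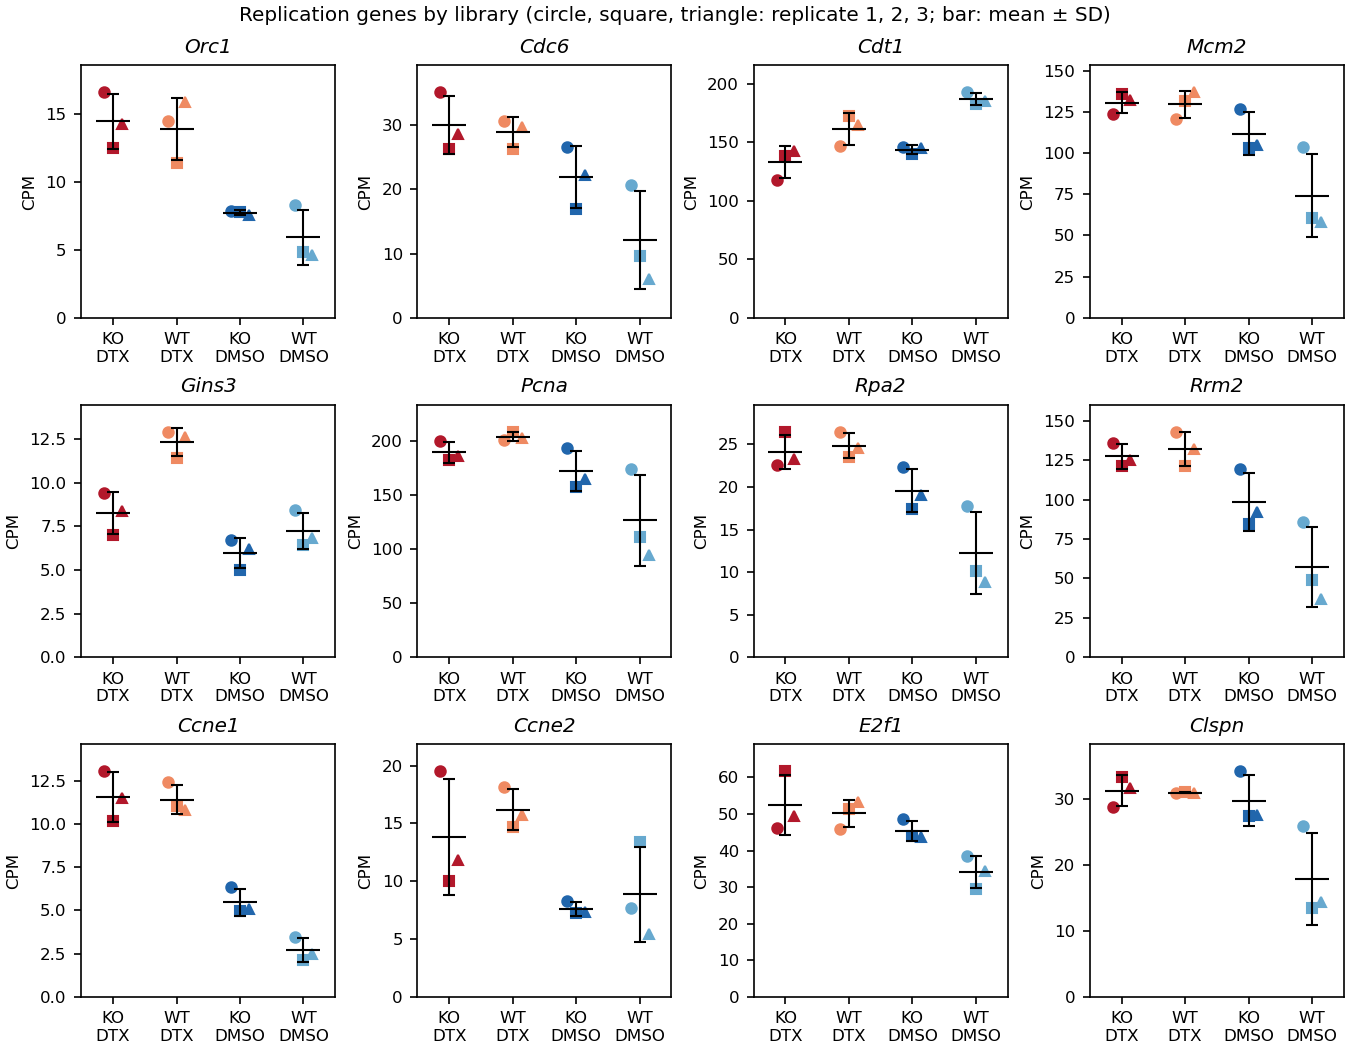
CPM of 12 replication genes in each library, with the mean and SD of the 3 libraries of each group. For Ccne1 the docetaxel libraries of both genotypes sit between 10.2 and 13.0 CPM, above all DMSO libraries, whereas for Cdt1 the wild-type DMSO libraries, at 183 to 193 CPM, are the highest.

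Among the licensing genes, which mark and load the origins, 2 of 11 rose with docetaxel in knockout-labelled cells and 7 of 11 in wild-type cells. The shares over all genes were 9.09% and 14.5%. Orc1, the subunit of the origin recognition complex whose level changes most over the cell cycle, had 16.6, 12.5 and 14.2 CPM in knockout-labelled docetaxel and 14.5, 11.4 and 15.8 CPM in wild-type docetaxel libraries. Under DMSO it had 7.87, 7.78 and 7.52 CPM in knockout-labelled and 8.27, 4.85 and 4.63 CPM in wild-type libraries. No docetaxel library overlapped a DMSO library of either genotype. The increases were log2 0.90 ± 0.20 (edgeR adjusted p = 0.00655) in knockout-labelled cells and 1.23 ± 0.20 (edgeR adjusted p = 0.00063) in wild-type cells. Orc2, another subunit, had 46.2, 32.6 and 35.8 CPM in knockout-labelled docetaxel, 39.4, 31.5 and 33.9 CPM in wild-type docetaxel, 24.6, 21.1 and 23.9 CPM in knockout-labelled DMSO, and 22.4, 19.1 and 18.7 CPM in wild-type DMSO libraries. Its docetaxel increases were log2 0.72 ± 0.13 (edgeR adjusted p = 0.00234) in knockout-labelled cells and 0.80 ± 0.13 (edgeR adjusted p = 0.000801) in wild-type cells. Exons of the opposite-strand gene Nif3l1 cover 29.8% of the exonic bases of Orc2, which leaves its counts uncertain. The Orc1 and Orc2 calls were kept in all 6 fits with 1 library left out in each genotype. Orc6 did not pass in either, at log2 0.34 ± 0.13 in knockout-labelled cells and 0.32 ± 0.13 in wild-type cells.

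CDC6 and CDT1 load the MCM rings together, and their transcripts are given side by side. Cdc6 had 35.1, 26.3 and 28.7 CPM in knockout-labelled docetaxel and 30.7, 26.3 and 29.7 CPM in wild-type docetaxel libraries. Under DMSO it had 26.6, 16.97 and 22.2 CPM in knockout-labelled and 20.7, 9.57 and 6.08 CPM in wild-type libraries, the widest spread of any group for this gene. With docetaxel Cdc6 had a log2 value of 0.46 ± 0.30 in knockout-labelled cells, which did not pass (edgeR adjusted p = 0.333), and rose by 1.25 ± 0.31 in wild-type cells (edgeR adjusted p = 0.00848). Cdt1 had 118, 138 and 143 CPM in knockout-labelled docetaxel and 147, 173 and 165 CPM in wild-type docetaxel libraries. Under DMSO it had 146, 139.6 and 146 CPM in knockout-labelled and 193, 183 and 185 CPM in wild-type libraries. The genotype difference after docetaxel, log2 −0.28 ± 0.09, did not pass (edgeR adjusted p = 0.0844). Of the 47 genes it was the 1 lower in knockout-labelled cells under DMSO (log2 −0.38 ± 0.09, edgeR adjusted p = 0.00947), and that call was kept in all 6 fits with 1 library left out. With docetaxel in wild-type cells its log2 fold change was −0.21 ± 0.09 (edgeR adjusted p = 0.0833), the most negative of the 47, and a correction for GC content called it lower.

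The 6 MCM genes encode the ring of the replicative helicase. In knockout-labelled cells none of the 6 passed with docetaxel, at log2 fold changes of −0.25 (Mcm7) to 0.22 (Mcm2). In wild-type cells Mcm2, Mcm3, Mcm4 and Mcm5 rose, by log2 0.63 to 0.87, while Mcm6 and Mcm7 had 0.22 ± 0.11 and 0.20 ± 0.12 and did not pass. Under DMSO, Mcm2, Mcm3, Mcm6 and Mcm7 were higher in knockout-labelled than in wild-type cells, by log2 0.38 to 0.72. Mcm2 had 124, 136 and 132 CPM in knockout-labelled docetaxel, 121, 131 and 137 CPM in wild-type docetaxel, 127, 103 and 105 CPM in knockout-labelled DMSO, and 103, 60.7 and 58.3 CPM in wild-type DMSO libraries. Wild-type DMSO library 1 thus reached the range of the knockout-labelled DMSO libraries, and the other 2 stood well below it. The docetaxel change of Mcm2 was log2 0.22 ± 0.17 (edgeR adjusted p = 0.404) in knockout-labelled cells and 0.81 ± 0.17 (edgeR adjusted p = 0.00354) in wild-type cells. Mcm3 had 181, 204 and 183 CPM in knockout-labelled docetaxel, 176, 191 and 189 CPM in wild-type docetaxel, 188, 153 and 160.2 CPM in knockout-labelled DMSO, and 142, 77.7 and 83.5 CPM in wild-type DMSO libraries. Its 3 wild-type DMSO libraries lay below all other libraries. Mcm3 had log2 fold changes with docetaxel of 0.18 ± 0.17 (edgeR adjusted p = 0.52) in knockout-labelled cells and 0.87 ± 0.17 (edgeR adjusted p = 0.00255) in wild-type cells. The genotype difference of Mcm3 under DMSO was 0.72 ± 0.17 (edgeR adjusted p = 0.0122) and was kept in 4 of 6 fits with 1 library left out. The genotype difference of Mcm2 under DMSO, 0.59 ± 0.17 (edgeR adjusted p = 0.0304), was kept in 1 of 6 fits with 1 library left out.

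Helicase activation needs CDC45, the 4 GINS subunits and MCM10. Of these 6 genes, Gins3 alone rose with docetaxel in knockout-labelled cells, and Cdc45, Gins1, Gins3 and Mcm10 rose in wild-type cells, by log2 0.40 to 0.77. Gins3 had 9.39, 7.02 and 8.37 CPM in knockout-labelled docetaxel and 12.9, 11.4 and 12.6 CPM in wild-type docetaxel libraries. It had 6.68, 5.02 and 6.17 CPM in knockout-labelled DMSO and 8.41, 6.43 and 6.82 CPM in wild-type DMSO libraries. After docetaxel the 3 knockout-labelled libraries all lay below the 3 wild-type ones. That difference, log2 −0.57 ± 0.15 (edgeR adjusted p = 0.0346), was the 1 genotype call among the 47 after docetaxel and was kept in 1 of 6 fits with 1 library left out. The docetaxel change of Gins3 was 0.47 ± 0.15 (edgeR adjusted p = 0.0492) in knockout-labelled cells and 0.77 ± 0.15 (edgeR adjusted p = 0.0022) in wild-type cells. Mcm10 had 57.5, 54.3 and 51.4 CPM in knockout-labelled docetaxel, 59.3, 57.0 and 57.3 CPM in wild-type docetaxel, 46.3, 40.8 and 40.98 CPM in knockout-labelled DMSO, and 48.4, 29.2 and 28.6 CPM in wild-type DMSO libraries. In both genotypes the docetaxel libraries of Mcm10 lay above the DMSO libraries. Its docetaxel change was log2 0.35 ± 0.15 (edgeR adjusted p = 0.142) in knockout-labelled cells and 0.71 ± 0.16 (edgeR adjusted p = 0.00442) in wild-type cells. Gins2 did not pass anywhere, and exons of the opposite-strand gene Gse1 cover 67.3% of its exonic bases.

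Few of the polymerase and primase genes passed. Of the 4 polymerase α-primase genes, none rose with docetaxel in knockout-labelled cells and Pola2 alone rose with docetaxel in wild-type cells, by log2 0.35 ± 0.11 (edgeR adjusted p = 0.0305), and of the 5 genes of polymerases δ and ε none passed in any of the comparisons. The log2 fold changes of these 9 genes with docetaxel ran from −0.29 (Pold1) to 0.18 (Prim2) in knockout-labelled cells and from −0.17 (Prim1) to 0.35 (Pola2) in wild-type cells. Pcna, the sliding clamp, had 200.2, 182 and 186 CPM in knockout-labelled docetaxel, 201, 209 and 203 CPM in wild-type docetaxel, 193, 158 and 165 CPM in knockout-labelled DMSO, and 175, 111 and 94.7 CPM in wild-type DMSO libraries. Its docetaxel change was log2 0.14 ± 0.16 (edgeR adjusted p = 0.617) in knockout-labelled cells and 0.69 ± 0.17 (edgeR adjusted p = 0.00738) in wild-type cells. The wild-type call was kept in all 6 fits that left out 1 library of the groups compared. Among the clamp loader genes, Rfc3 and Rfc5 rose with docetaxel in wild-type cells, by log2 0.43 ± 0.11 and 0.47 ± 0.14, and Rfc1, Rfc2 and Rfc4 did not pass. Fen1, the flap nuclease, also passed there, but it had only 0.895 to 5.06 CPM over the 12 libraries. Exons of the opposite-strand gene Gm10143 cover 78.8% of the exonic bases of Fen1. Lig1, the ligase, did not pass in any comparison.

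RPA, the complex that covers single-stranded DNA, rose with docetaxel in wild-type cells in both subunits listed here. Rpa2 had 22.6, 26.4 and 23.3 CPM in knockout-labelled docetaxel, 26.5, 23.5 and 24.6 CPM in wild-type docetaxel, 22.3, 17.4 and 19.0 CPM in knockout-labelled DMSO, and 17.8, 10.2 and 8.85 CPM in wild-type DMSO libraries. Its docetaxel change was log2 0.30 ± 0.19 (edgeR adjusted p = 0.321) in knockout-labelled cells and 1.02 ± 0.20 (edgeR adjusted p = 0.00205), or 2.03-fold, in wild-type cells. Its 3 wild-type DMSO libraries lay below all docetaxel libraries. Under DMSO it was higher in knockout-labelled cells by log2 0.67 ± 0.20 (edgeR adjusted p = 0.033), a call kept in 2 of 6 fits with 1 library left out, at log2 0.48 to 1.04. Rpa1 had 99.6, 111 and 111 CPM in knockout-labelled docetaxel, 105, 121 and 120.2 CPM in wild-type docetaxel, 108, 90.9 and 98.0 CPM in knockout-labelled DMSO, and 90.1, 60.8 and 62.3 CPM in wild-type DMSO libraries. Rpa1 had log2 fold changes with docetaxel of 0.11 ± 0.13 in knockout-labelled cells, which did not pass, and 0.70 ± 0.13 in wild-type cells, which did.

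The 5 genes of nucleotide supply make and guard the pool of deoxynucleotides. With docetaxel 0 of 5 passed in knockout-labelled cells, where 9.09% of all genes were called higher and 7% lower. In wild-type cells Rrm1 and Rrm2, which encode subunits of ribonucleotide reductase, Tyms, whose enzyme makes thymidylate, and Dut, whose enzyme removes dUTP, rose. Rrm2 had 136, 121 and 125 CPM in knockout-labelled docetaxel, 143, 121 and 132 CPM in wild-type docetaxel, 119, 84.5 and 91.9 CPM in knockout-labelled DMSO, and 85.8, 48.8 and 36.9 CPM in wild-type DMSO libraries. In both genotypes every docetaxel library lay above every DMSO library. The log2 fold change was 0.37 ± 0.22 (edgeR adjusted p = 0.281) in knockout-labelled cells and 1.21 ± 0.22 (edgeR adjusted p = 0.00159) in wild-type cells. Under DMSO it was higher in knockout-labelled cells by 0.78 ± 0.22 (edgeR adjusted p = 0.0286), a call kept in 2 of 6 fits with 1 library left out. Tyms had 37.0, 31.9 and 35.7 CPM in knockout-labelled docetaxel, 44.9, 40.7 and 40.8 CPM in wild-type docetaxel, 40.0, 33.1 and 32.2 CPM in knockout-labelled DMSO, and 37.2, 19.9 and 22.7 CPM in wild-type DMSO libraries. Its wild-type DMSO library 1 lay above the other 2 of its group. The docetaxel change of Tyms was log2 −0.01 ± 0.18 (edgeR adjusted p = 0.979) in knockout-labelled cells and 0.66 ± 0.18 (edgeR adjusted p = 0.0131) in wild-type cells. Tk1, the thymidine salvage kinase, had −0.26 ± 0.17 in knockout-labelled cells and 0.18 ± 0.17 in wild-type cells and did not pass in either.

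Clspn and Tipin encode claspin and the partner of Timeless, which hold the fork together and pass its stress signal to CHK1, and both rose with docetaxel in wild-type cells. Clspn had 28.8, 33.4 and 31.7 CPM in knockout-labelled docetaxel, 31.0, 31.1 and 30.9 CPM in wild-type docetaxel, 34.2, 27.4 and 27.7 CPM in knockout-labelled DMSO, and 26.0, 13.5 and 14.4 CPM in wild-type DMSO libraries. Of the 4 groups, the wild-type DMSO libraries were the lowest, and library 1 among them came close to the others. The docetaxel change of Clspn was log2 0.07 ± 0.19 (edgeR adjusted p = 0.838) in knockout-labelled cells and 0.79 ± 0.19 (edgeR adjusted p = 0.00765) in wild-type cells. Under DMSO it was higher in knockout-labelled cells by 0.73 ± 0.19 (edgeR adjusted p = 0.019), kept in 3 of 6 fits with 1 library left out. Tipin had 54.7, 41.4 and 46.0 CPM in knockout-labelled docetaxel, 44.7, 41.1 and 45.1 CPM in wild-type docetaxel, 40.4, 36.1 and 38.0 CPM in knockout-labelled DMSO, and 35.6, 27.0 and 21.0 CPM in wild-type DMSO libraries. The wild-type DMSO libraries of Tipin were the lowest of the 12. The docetaxel change of Tipin was log2 0.31 ± 0.15 (edgeR adjusted p = 0.18) in knockout-labelled cells and 0.65 ± 0.15 (edgeR adjusted p = 0.00661) in wild-type cells.

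**Figure D3:**
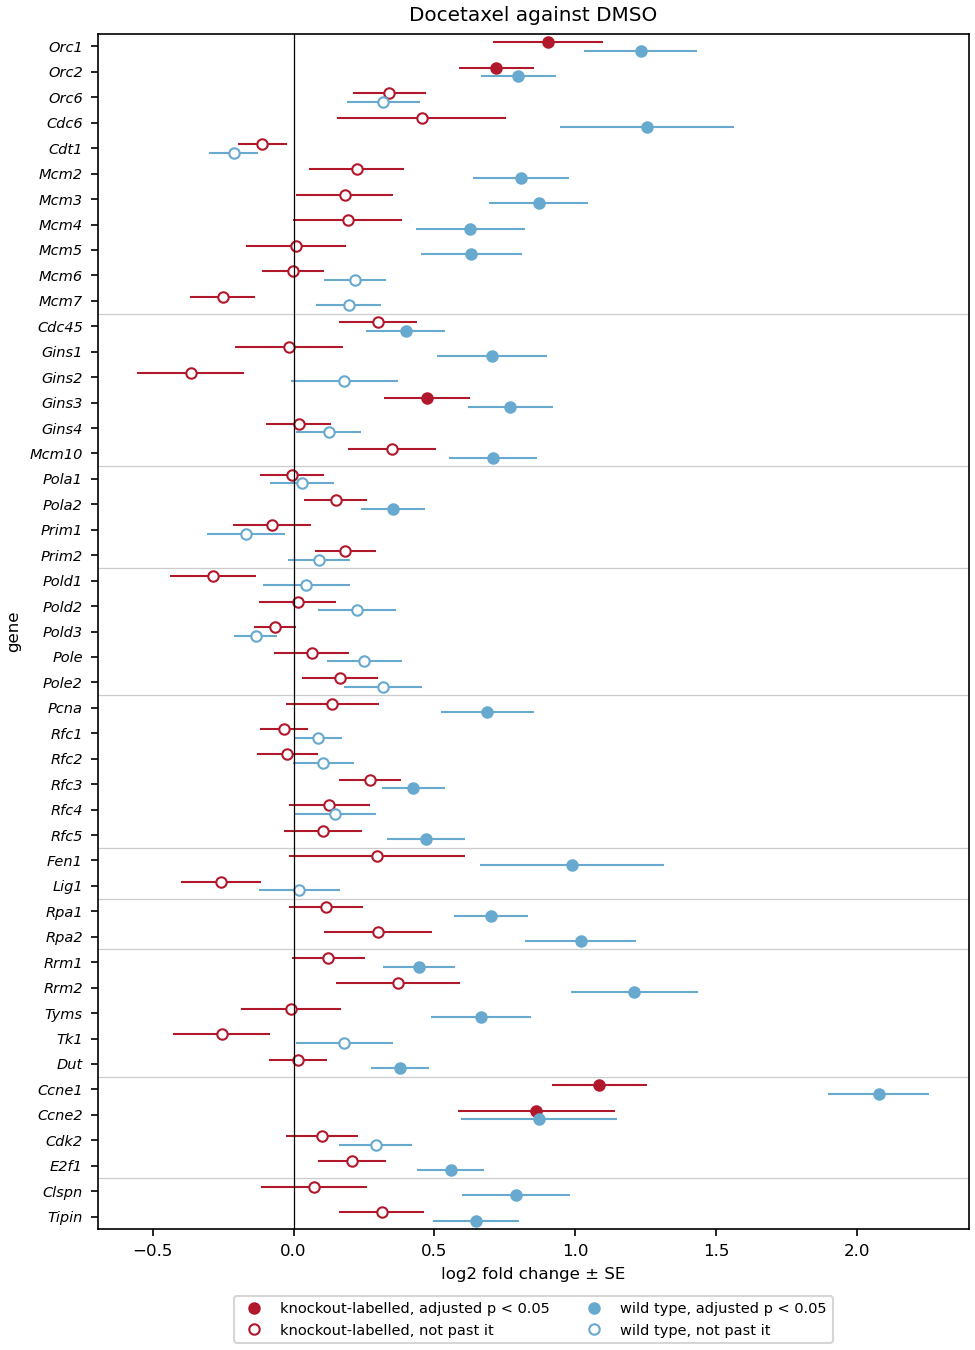
Log2 fold change with docetaxel against DMSO, with its SE, for the 47 genes in knockout-labelled (red) and wild-type (blue) cells, grouped by role. Filled points passed an adjusted p of 0.05, 5 of 47 in knockout-labelled and 27 of 47 in wild-type cells.

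**Figure D4:**
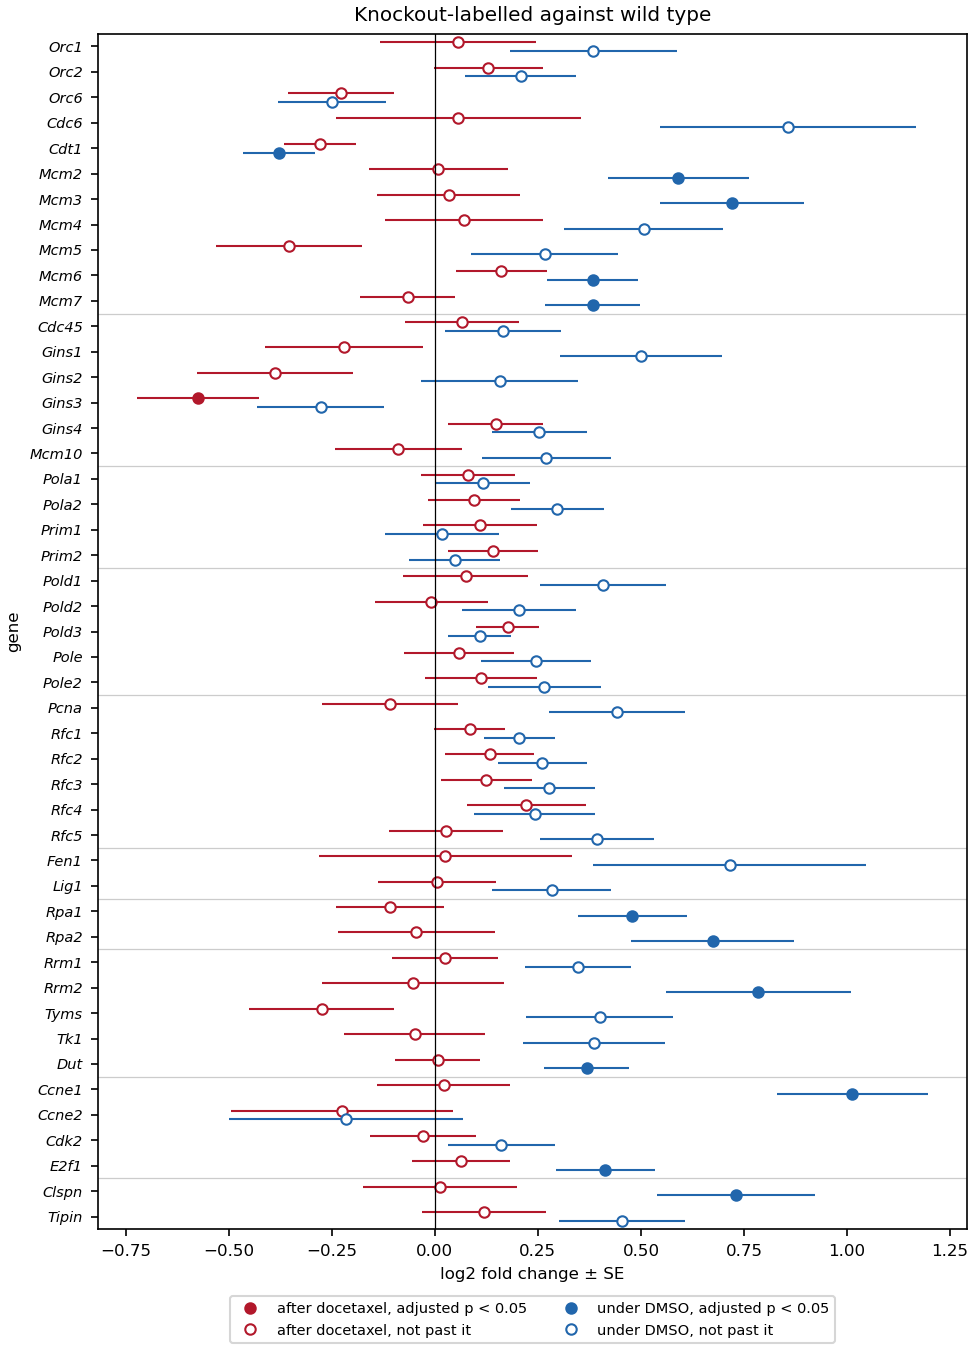
Log2 difference of knockout-labelled against wild-type cells, with its SE, for the 47 genes after docetaxel (red) and under DMSO (blue). Filled points passed an adjusted p of 0.05, 1 of 47 after docetaxel and 12 of 47 under DMSO.

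Per kilobase of the main transcript, Pcna had the highest level of the 47 in 3 of the groups and Fen1 the lowest in all 4. Pcna averaged 125, 135, 113 and 83.5 CPM per kb, and Fen1 1.72, 1.69, 1.397 and 0.851 CPM per kb, in knockout-labelled docetaxel, wild-type docetaxel, knockout-labelled DMSO and wild-type DMSO cells. In wild-type DMSO cells Cdt1, at 85.4 CPM per kb, stood beside Pcna. Summed over the 47 genes, the level was 3466, 3483 and 3459 CPM in knockout-labelled docetaxel libraries and 3451, 3531 and 3529 CPM in wild-type docetaxel libraries. Under DMSO the sum was 3556, 3135 and 3286 CPM in knockout-labelled and 3318, 2424 and 2233 CPM in wild-type libraries. The 2 low sums were those of wild-type DMSO libraries 2 and 3, and the sum in library 1 lay among those of the knockout-labelled DMSO libraries.

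The wild-type DMSO libraries differed most among themselves. The median SD of log2 CPM over the 47 genes was 0.116 in knockout-labelled docetaxel, 0.0842 in wild-type docetaxel, 0.117 in knockout-labelled DMSO and 0.336 in wild-type DMSO cells, beside 0.180, 0.136, 0.117 and 0.219 over all tested genes. Wild-type DMSO library 1 was above its group mean for 46 of the 47 genes, against 7650 of all 15538 tested genes. It was the highest of its group for 45 of the 47, a count not made over all genes. Its median deviation was 0.34 on the log2 scale, against −0.11 in library 2 and −0.25 in library 3. For 19 of the 47 genes it reached at least the lowest wild-type docetaxel library, as library 2 did for 5 and library 3 for 3, counts not made over all genes. Mitosis genes deviated with it, 24 of 25 being above the group mean, with a median deviation over the list of 0.18, as did 42 of 51 other replication genes, with 0.28. Its Gm23935 share was 1.62%, against 3.98% in library 2 and 0.435% in library 3. The test estimated the spread of each gene over all groups together, so its SE and p-values do not carry this unequal spread. They may be too narrow for comparisons with wild-type DMSO cells and too wide for the others. The part of these differences in the results was not tested.

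Wild-type DMSO library 1 was the highest of its group for 45 of the 47 genes, so leaving it out lowers the wild-type DMSO means of these genes. The counts without it are therefore no separate support for a difference. Without wild-type DMSO library 1, 32 of the 47 genes rose with docetaxel in wild-type cells, where 15.1% of all genes were called higher and 14.8% lower. Without library 2 it was 21 (11.6% of all genes higher, 11.5% lower) and without library 3 it was 15 (10.9% higher, 10% lower). Without wild-type docetaxel library 1, 2 or 3 it was 21, 21 or 18, where 10.3%, 11.2% and 9.91% of all genes were called higher. The 15 genes called in every fit with 1 library left out were Orc1, Orc2, Cdc6, Mcm2, Mcm3, Gins3, Mcm10, Pcna, Rpa1, Rpa2, Rrm2, Ccne1, E2f1, Clspn and Tipin. Of the other 12, Tyms kept its call in 5 of 6 such fits, Gins1, Rfc3 and Dut in 4, Mcm5 and Rrm1 in 3, Mcm4, Rfc5 and Ccne2 in 2, and Cdc45, Pola2 and Fen1 in 1. The genotype count under DMSO moved further. It was 32 of 47 higher in knockout-labelled cells without wild-type DMSO library 1, 1 without library 2 and 2 without library 3, where 9.35%, 3.57% and 4.52% of all genes were called higher. The genes lower in knockout-labelled cells were 1, 1 and 2 of 47, where 11.1%, 6.35% and 7.34% of all genes were called lower. The count of genes higher in knockout-labelled cells was 1, 7 or 3 without knockout-labelled DMSO library 1, 2 or 3, where 2.88%, 4.19% and 3.79% of all genes were called higher. Of the 12 genes called under DMSO, Ccne1 and Cdt1 were called in all 6 such fits. Mcm3 was called in 4, Clspn in 3, Rpa1, Rpa2, Rrm2 and Dut in 2, and Mcm2, Mcm6, Mcm7 and E2f1 in 1. In knockout-labelled cells the docetaxel count was 5 without docetaxel library 2 and 3 without any 1 of the other 5 libraries, and Ccne1, Orc1 and Orc2 were called in every fit. Over all genes 9.88% were called higher without docetaxel library 2, 6.09% and 5.67% without docetaxel library 1 or 3, and 6.32%, 5.01% and 5.46% without DMSO library 1, 2 or 3.

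Whether the docetaxel change differed between the 2 genotypes was tested with the interaction, the docetaxel change in knockout-labelled cells minus that in wild-type cells. In edgeR 0 of the 47 genes passed, where 0.0901% of all genes were called higher and 0.0193% lower. At an unadjusted p under 0.05, 13 of the 47 passed, against 11% of all genes. With all 12 libraries, other settings called 1 of the 47 lower in DESeq2 (0.251% of all genes), 1 with the replicate number as a block (0.0451%) and 12 without the filter on low counts (0.578%). The median interaction was −0.33 on the log2 scale, beside 0.00 over all genes, with 42 of the 47 negative and 5 positive. It was −0.48 without wild-type DMSO library 1, −0.24 without library 2 and −0.20 without library 3. The largest was that of Ccne1, −0.99 ± 0.24 (edgeR adjusted p = 0.178), followed by Rrm2, −0.84 ± 0.31 (edgeR adjusted p = 0.372), and Cdc6, −0.80 ± 0.43 (edgeR adjusted p = 0.501). With library 1 of the wild-type DMSO group left out, 18 of the 47 passed, all negative, where 1.32% of all genes were called higher and 1.38% lower. They included Cdc6 at −1.43, Rrm2 at −1.25, Ccne1 at −1.21, Rpa2 at −1.09, Clspn at −1.08 and Mcm3 at −1.02. That library was the highest of its group for 45 of the 47, so its removal shifts their interaction downward, and the 18 are no separate support. Without any other single library 0 passed. Without wild-type DMSO library 2, 0.0628% of all genes were called higher and 0.0126% lower, and without library 3, 0.244% and 0.0375%. Whether replication genes pass the interaction thus depended on that library and on the filter.

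**Figure D5:**
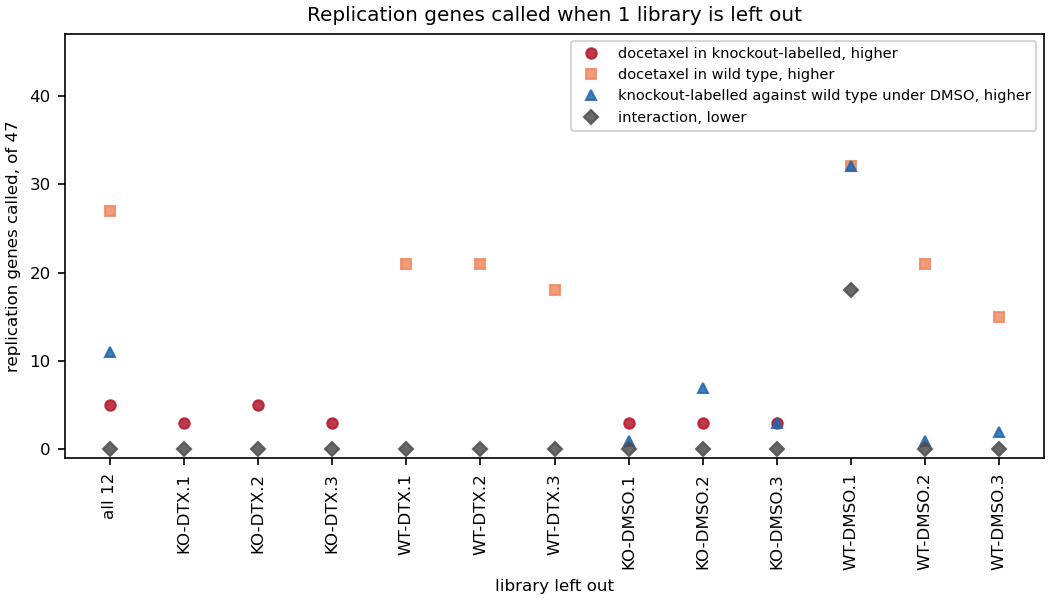
Number of the 47 genes called (adjusted p of 0.05) with all 12 libraries and with each library left out, for docetaxel in knockout-labelled cells, docetaxel in wild-type cells, knockout-labelled against wild-type cells under DMSO, and the interaction in the negative direction. A count is drawn only for comparisons that use the library. Without WT-DMSO.1 the wild-type docetaxel and DMSO genotype counts are both 32 and the interaction count is 18. The shares of all genes called in those directions were 15.1%, 9.35% and 1.38%. That library was the highest of its group for 45 of the 47 genes, so the counts without it are no separate support.

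Other genes of the same machinery were counted from lists. Of 51 further replication genes, 4 rose and 1 fell with docetaxel in knockout-labelled cells, where 9.09% of all genes were called higher and 7% lower. In wild-type cells 19 rose and 2 fell, where 14.5% of all genes were called higher and 13.8% lower. Their median log2 fold changes were 0.06 in knockout-labelled and 0.25 in wild-type cells. In knockout-labelled cells the largest called changes were those of Pold4, a small subunit of polymerase δ, at −0.63, Orc4, an origin recognition subunit, at 0.52, and the histone chaperone gene Asf1b, at 0.48. In wild-type cells they were those of the nuclease genes Exo1, at 0.98, and Dna2, at 0.91, and of Pold4, at −0.97. Samhd1, which degrades deoxynucleotides, was lower in knockout-labelled cells both after docetaxel, by log2 −0.51, and under DMSO, by −0.65. After docetaxel, 0 of the 51 were higher in knockout-labelled cells and 1 lower, where 2.5% and 3.39% of all genes were called. Under DMSO 9 were higher and 1 lower, where 6.6% and 9.2% of all genes were called.

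Of 31 E2F and cell-cycle control genes, 29 were tested (Cdkn1c and Cdkn2a were filtered out), and 6 rose and 2 fell with docetaxel in knockout-labelled cells (9.09% and 7% of all genes) and 11 rose and 3 fell in wild-type cells (14.5% and 13.8%). The cyclin gene Ccnd3 rose by log2 0.44 in knockout-labelled and 0.76 in wild-type cells, and Lin54, of the DREAM complex, by 0.63 in knockout-labelled and 0.67 in wild-type cells. Cdkn1b, which encodes the CDK inhibitor p27, had −0.37 in knockout-labelled and −0.67 in wild-type cells, both called lower. In knockout-labelled cells Lin9, another DREAM gene, rose by 0.59 and the cyclin gene Ccnd2 by 0.55, and in wild-type cells E2f8, a repressor of the E2F family, rose by 0.69. Of 25 mitosis genes, 1 rose with docetaxel in knockout-labelled cells, the kinase gene Aurka at log2 0.30, where 9.09% of all genes rose. In wild-type cells 5 of 25 rose, where 14.5% of all genes rose. The 5 were led by the cyclin gene Ccnb1 at 0.38 and the kinase genes Plk1 at 0.37 and Cdk1 at 0.36. Between genotypes, none of either list passed after docetaxel. Under DMSO 3 control genes and 4 mitosis genes were higher in knockout-labelled cells, and 3 control genes and 1 mitosis gene were lower, where 6.6% of all genes were called higher and 9.2% lower.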

How the data were processed

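Total RNA of 12 cultures was depleted of ribosomal RNA with RNase H, reverse transcribed with random hexamers and sequenced as read pairs, per the labels' protocols. STAR 2.5.1a, bcl2fastq and featureCounts 1.4.6-p5 (Subread) are named by the submitters' processing notes. Build, annotation, strand setting and the handling of multi-mapped reads stand in no source used here. The authors deposited raw counts per gene symbol, 1 column per library. Of 40757 entries, 351 exact repeats (0.907% of counts) were removed. Symbols were matched to GENCODE M21 (GRCm38).

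edgeR 4.0.16 in R 4.3.3 was used with filterByExpr, TMM scaling and 1 mean per group over the 12 libraries. Benjamini-Hochberg adjustment ran over 15538 genes, two-sided, at 0.05. SE was taken as |log2 fold change| over √F, with the spread of each gene estimated over all groups together. The common biological coefficient of variation was 13.2%, and libraries of 1 group differed by chi-square values of 8.46 to 172 per degree of freedom, so none repeated another. The test was run on simulated counts with known changes. Alternatives were DESeq2 1.42.0, limma-voom (limma 3.58.1), RLE and upper-quartile scaling, no filter, at least 1 CPM in 3 libraries, a GC correction, repeats kept, replicate number as a block, the 6 libraries of each contrast, and each library left out. Full values are given for the 5 called genes of largest change per docetaxel contrast, the 3 per genotype contrast, and Pcna, Mcm2, Cdt1, Rrm2, Ccne1, Ccne2 and E2f1, and 3 genes per pathway list and docetaxel contrast are named. Further genes were picked with values in view. The 47 genes and all lists were chosen with earlier results of these data known. Figures were drawn with matplotlib 3.10.9.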

Additional observations from a re-analysis of the deposited data

How the results depend on the processing

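No named value that passed the test changed sign under any alternative run, but counts of called genes moved. RLE scaling, at least 1 CPM in 3 libraries and the repeats kept moved no count of the 47 genes by over 1.5 times. In knockout-labelled cells, 5 genes rose with docetaxel, against 3 with limma-voom, 3 with upper-quartile scaling and 9 without the filter, and the 6 libraries alone called 1 lower. Over all genes, 1412 of 15538 were called higher, against 1419 with limma-voom, 1184 with upper-quartile scaling and 1688 of 28365 without the filter. The 6 libraries alone called 1223 of 14702 lower. In wild-type cells, 27 rose, against 17 without docetaxel library 3 of the knockout-labelled cells and DMSO library 2 of the wild type (each with the highest Gm23935 share of its group, a pair chosen after seeing the data), and the GC correction called 1 lower. Over all genes, 2259 of 15538 were called higher, against 1558 of 15885 without that pair, and the GC correction called 2660 of 15538 lower. After docetaxel, 1 was lower in knockout-labelled cells, against 2 with DESeq2, without the filter or with the GC correction, and 0 without that pair. Over all genes, 526 of 15538 were called lower there, against 738 with DESeq2 and 718 with the GC correction. Without the filter it was 682 of 28365, and without that pair 292 of 15885. Under DMSO, 11 were higher in knockout-labelled cells, against 22 without the filter, 3 with the 6 libraries alone and 1 without that pair. Over all genes, 1025 of 15538 were called higher there, against 1315 of 28365, 562 of 14342 and 442 of 15885 in the same order. For the interaction, 0 were lower, against 1 with DESeq2, 12 without the filter and 1 with the replicate block. Over all genes, 0.0193% were called lower, against 0.251%, 0.578% and 0.0451% in the same order. Without all 3 libraries with a Gm23935 share above 1% (that pair and wild-type DMSO library 1, also chosen after seeing the data), which leaves 1 wild-type DMSO library assumed to vary like the other groups, 5 rose and 1 fell with docetaxel in knockout-labelled cells, 34 rose in wild-type cells, 0 differed between genotypes after docetaxel, 26 were higher and 0 lower in knockout-labelled cells under DMSO, and 6 had a negative interaction. The cause was not tested. With 1 wild-type DMSO library the spread of that group cannot be measured, so the counts that use it support no difference. In that fit the median log2 value of the 47 was 0.67 for docetaxel in wild-type cells, beside 0.06 over all genes. It was 0.11 in knockout-labelled cells, beside 0.01. Between genotypes it was 0.58 under DMSO, beside 0.01, and 0.03 after docetaxel, beside 0.00. For the interaction it was −0.59, beside −0.01. With 1 library left out at a time, the counts ran from 3 to 5 for docetaxel in knockout-labelled cells and 15 to 32 in wild-type cells, 0 to 1 lower between genotypes after docetaxel, 1 to 32 higher and 1 to 2 lower under DMSO, and 0 to 18 lower for the interaction. Over all genes, 247 to 404 were called lower between genotypes after docetaxel in these fits, and 803 to 1780 lower under DMSO. Where 1 library was left out, the remaining 2 share the spread of the other groups. Over the named genes, 715 of 767 values under the other alternatives kept direction and side of the threshold, 25 gained a call, 21 lost one and 6 uncalled values changed sign. Deviations of same-numbered libraries had correlations over genes of −0.187 to 0.346, and of 0.346, 0.218 and 0.0252 between genotypes after docetaxel. With 3 libraries a group this cannot tell whether the numbers pair the samples. With the replicate block 4 genes rose with docetaxel in knockout-labelled cells and 27 in wild-type cells. Between genotypes, 1 was lower in knockout-labelled cells after docetaxel, against 16 higher and 1 lower under DMSO. Over all 15538 genes the block called 1497 and 2311 higher with docetaxel in knockout-labelled and wild-type cells. Between genotypes it called 548 lower after docetaxel, and 1077 higher and 1457 lower under DMSO. With 3 libraries a group, differences of about 3 SE could go uncalled, as that of Cdt1 after docetaxel did (−0.28 ± 0.09).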
